A study of Mus musculus with 7 samples.

Results

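Importins carry proteins into the nucleus. An importin alpha recognises the nuclear localisation signal of a cargo and binds importin beta, which moves the complex through the nuclear pore. Inside, Ran in its GTP-bound form releases the cargo, and Cse1l with Ran returns the importin alpha to the cytoplasm. The mouse importin alphas differ in the cargoes they prefer. Kpna7 is known in mice as the form made by oocytes, and embryos of mothers that lack it develop poorly.

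The importin family was represented by 7 genes among the 26586 gene symbols of the count table, found by symbol. They are the importin alphas Kpna7, Kpna1, Kpna2, Kpna3, Kpna4 and Kpna6, and importin beta, Kpnb1. Messenger RNA was sequenced from 7 single morula embryos of the C57BL/6 background at 3 days post coitum, bred from mice heterozygous for L13a (L13a-/+ cross; the gene is Rpl13a). The embryos were untreated and form 1 group. No source used here gives the genotype, sex or litter of an embryo, or states that the litters were separate. A p-value therefore measures only how these 7 samples vary, and part of that variation may be technical. Oligo-dT priming and SMART-Seq v4 amplification carry no molecular identifiers, so intervals and count limits below cover counting error only.

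Library totals ran from 139619 counts (replicate 6) to 33123742 counts (replicate 4), a 237-fold range, and 1749 to 12064 genes had a count. Markers of the morula stage were counted unevenly, as were genes at large. Of 8 pluripotency genes, 2, 4, 3, 8, 2, 0 and 4 had a count in replicates 1 to 7, and of 10 trophectoderm genes, 2, 8, 1, 10, 1, 1 and 4 had one. Of 18 oocyte transcripts, 13, 17, 11, 12, 6, 7 and 18 had a count, and their levels, as counts scaled to the library total (CPM), summed to 9836, 11146, 12058, 6574, 692, 7241 and 18891 CPM. Over the 11810 genes of mean CPM 1 or more, 41.7, 72.1, 29.0, 84.0, 27.7, 14.8 and 69.5% had a count in replicates 1 to 7. The marker counts are to be read beside these shares. In RNA from whole embryos, fewer cells of a type and less RNA per cell cannot be told apart.

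Kpna7 and Kpna2 are the members the comparison turns on, and the bases before their start sites are shown because they differ in base composition. The 250 bases before each start site come from RefSeq on GRCm38.p6, at chr5:145009637-145009886 for Kpna7 and chr11:106999526-106999775 for Kpna2, both on the minus strand and written 5′ to 3′. Capitals mark CG dinucleotides.
Kpna7: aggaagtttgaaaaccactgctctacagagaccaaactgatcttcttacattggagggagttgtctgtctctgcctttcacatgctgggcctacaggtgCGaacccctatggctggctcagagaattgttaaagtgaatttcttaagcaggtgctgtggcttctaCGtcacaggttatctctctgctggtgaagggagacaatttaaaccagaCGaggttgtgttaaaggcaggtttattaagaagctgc
Kpna2: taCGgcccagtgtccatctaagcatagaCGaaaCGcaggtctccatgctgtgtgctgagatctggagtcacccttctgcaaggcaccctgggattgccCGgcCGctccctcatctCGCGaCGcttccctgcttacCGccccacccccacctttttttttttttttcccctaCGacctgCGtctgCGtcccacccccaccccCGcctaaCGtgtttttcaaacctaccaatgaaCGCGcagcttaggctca

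The Kpna7 stretch lies inside the annotated gene, which reaches upstream to base 145084030 of chromosome 5, so it describes an internal start site. The Kpna2 stretch lies at the upstream end of its gene. The Kpna7 stretch held 3 CG dinucleotides and the Kpna2 stretch 16. Of 32851 RefSeq promoters of the same length, 37.8% held as few as Kpna7 or fewer, and 25.4% held as many as Kpna2 or more. The promoter table held 4 of the 7 members, and the other pair, Kpna4 and Kpnb1, held 24 and 28. The motif CCAAT was searched on both strands as CCAAT or ATTGG. It matched at 1 place in the Kpna7 stretch, 1 in Kpna2, 2 in Kpna4 and 3 in Kpnb1. Of the 32851 promoters, 33.8% held it. These are descriptions of the letters, not of binding.

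Kpna7 was counted in 1 embryo of 7. Replicate 2 had 251 Kpna7 counts, or 15.3 CPM (95% Poisson interval 13.4 to 17.3), and each of the other 6 embryos had 0. Of the 11810 genes with a mean of 1 CPM or more, 15.1% were counted in exactly 1 embryo and 2.36% in replicate 2 alone. The Kpna7 pattern is to be read beside these shares. They depend on that minimum, which a gene of 1 embryo passes by its level there, with fewer counts in a shallow library. Kpna7, at a mean of 2.18 CPM, passes it through replicate 2 alone. At the level of replicate 2, the libraries of replicates 4 and 7 would have held 505 and 261 Kpna7 counts, replicate 5 would have held 42.2, replicate 1 would have held 17.5 and replicate 3 would have held 11.1. Replicate 6 would have held 2.13, so its count of 0 does not set its level below that of replicate 2. Taking 3 counts as the limit that a count of 0 allows, Kpna7 was at least 168-fold lower in replicate 4 than in replicate 2. The same limit gives at least 87.1-fold lower in replicate 7, 14.1-fold in replicate 5, 5.82-fold in replicate 1 and 3.69-fold in replicate 3. All of these fold limits cover counting error only, and the larger variation between libraries is left out of them.

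The embryo with Kpna7 was not the one with the most oocyte RNA. Replicate 7 had a count for 18 of 18 oocyte transcripts and 0 counts of Kpna7, while replicate 2 had a count for 17 of 18. Npm2, the oocyte nucleoplasmin, stood at 185, 90.0, 416, 0, 0, 107 and 269 CPM in replicates 1 to 7. It was counted in 4 embryos in which Kpna7 had no count. Replicate 2 also held markers of the oviduct and uterine epithelium, with 8 of 12 counted and 1728 CPM in sum, against a range of 0 to 4340 CPM over the 7 embryos. Of all genes of mean CPM 1 or more, 72.1% were counted in replicate 2, beside which the 8 of 12 is to be read. The part of these markers in the Kpna7 count was not tested. In the list of oviduct and uterine markers, Pgr was at 0 in all 7 embryos.

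The Kpna7 gene (ENSMUSG00000038770.17, 6 annotated transcripts) occupies bases 144983519 to 145084030 of chromosome 5 in GRCm38, minus strand. At its upstream end, an exon of a single annotated transcript overlaps an exon of Arpc1a, a gene of the actin-nucleating Arp complex on the other strand. Arpc1a had 0, 3253, 37, 2024, 17, 0 and 1131 counts in replicates 1 to 7. No source used here says whether counting used strand, so reads from that overlap cannot be assigned. Arpc1a had its most counts in replicate 2, the embryo with Kpna7, and was also counted in replicates 3, 4, 5 and 7, where Kpna7 was not. The part of reads from the overlap in the Kpna7 count was not tested.

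Kpna2 was counted in every embryo and Kpna3 in all but replicate 5, and together they made up most of the importin alpha transcripts. Kpna2 (importin alpha 1, abundant in oocytes and embryonic stem cells) had 250, 8630, 426, 12478, 2571, 52 and 322 counts in replicates 1 to 7. In CPM these were 219, 525, 587, 377, 930, 372 and 18.8. Replicate 7 stood apart at the low end, and the other 6 embryos lay within 219 to 930 CPM. Of the 26586 gene symbols, 436 (1.64%) had a count in all 7 embryos, as did 3.69% of genes of mean CPM 1 or more. A count in 6 or more embryos, as for Kpna2 and Kpna3, was found for 12.7% of those genes, and in exactly 5, as for Kpna1, Kpna4, Kpna6 and Kpnb1, for 14.2%. Among genes of mean CPM 1 or more, 98.6% had a larger SD of log2 CPM than Kpna2 (8.17 ± 1.91, SD, n = 7). Counts of 0 enter these SDs, and most of those genes had one, so the rank is no measure of steadiness. For Kpna7, counted in 1 embryo, 88.5% of those genes had a larger SD.

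Kpna3, which carries cargoes such as NF-kappa B with its close relative Kpna4, had 427, 6050, 723, 1719, 0, 209 and 3823 counts, or 373, 368, 996, 51.9, 0, 1497 and 223 CPM. It was highest in replicate 6 and at 0 in replicate 5, where 3 counts equal 1.09 CPM. Replicate 5 was also the embryo with the highest Kpna2 and Kpnb1. Kpna4 had 3, 358, 0, 2776, 6, 0 and 419 counts, or 2.62, 21.8, 0, 83.8, 2.17, 0 and 24.5 CPM. Its level was thus highest in replicate 4, where Kpna3 was the lowest of the embryos that had it.

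**Figure D1:**
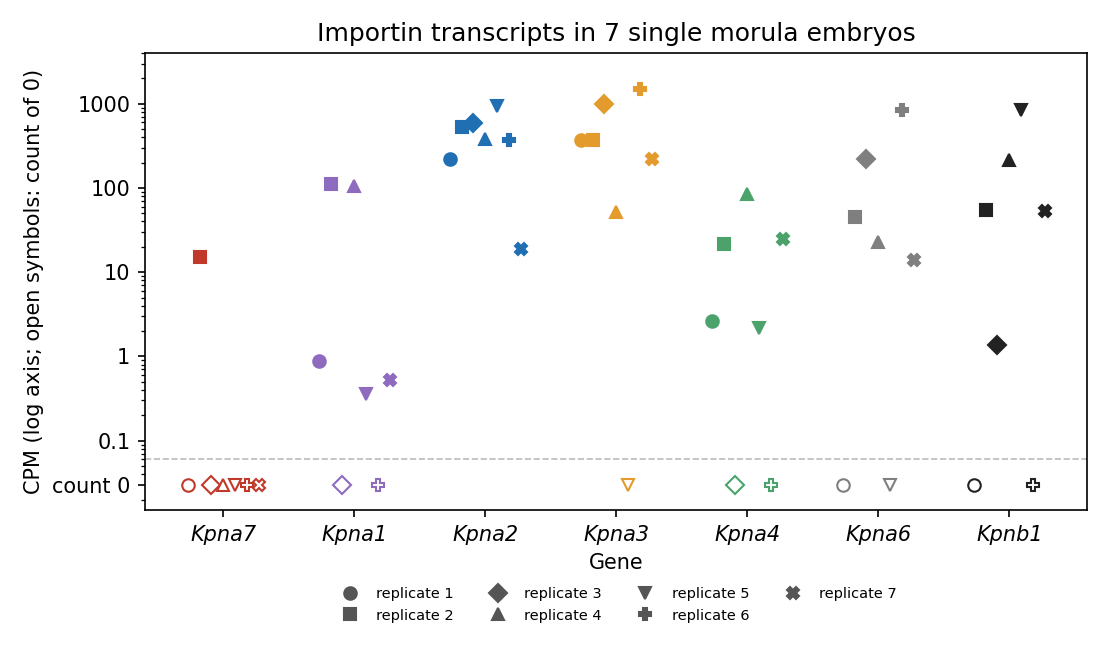
CPM of Kpna7, of the other importin alphas and of Kpnb1 in each of 7 embryos (log axis, 1 symbol shape per embryo, open symbols at the bottom for a count of 0). Kpna7 has 1 filled symbol, at 15.3 CPM in replicate 2, while Kpna2 has 7, from 18.8 to 930 CPM.

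Kpna6 and Kpna1 belong to a further subfamily. In mice, embryos from mothers without Kpna6 stop dividing after the first cleavage. Kpna6 had 0, 747, 160, 747, 0, 117 and 236 counts, or 0, 45.4, 220, 22.6, 0, 838 and 13.8 CPM in replicates 1 to 7. Its highest levels were in replicates 6 and 3, the shallowest libraries. Kpna1 had 1, 1812, 0, 3488, 1, 0 and 9 counts. Only replicates 2 and 4, at 110 and 105 CPM, had more than 1 CPM of it. Those libraries are 2 of the 3 deepest. Replicate 7, of similar depth to replicate 2, had 0.526 CPM (95% Poisson interval 0.240 to 0.998). The part of depth in the Kpna1 levels was not tested.

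Kpnb1, importin beta, which every importin alpha needs as its carrier, had 0, 899, 1, 7148, 2340, 0 and 906 counts. In CPM these were 0, 54.6, 1.38, 216, 846, 0 and 52.9. It was highest in replicate 5 and close to absent from the counts of replicates 1, 3 and 6, the 3 shallowest libraries. In those same embryos Kpna2 had 250, 426 and 52 counts and Kpna3 had 427, 723 and 209. The part of depth in the Kpnb1 counts was not tested.

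Levels of different genes were compared per kilobase of the longest consensus transcript, from 2.05 kb for Kpna2 and 2.45 kb for Kpna7 to 5.89 kb for Kpnb1. The median level was 183 CPM per kb for Kpna2, 90.4 for Kpna3, 8.98 for Kpnb1, 3.95 for Kpna6, 0.704 for Kpna4, 0.104 for Kpna1 and 0 for Kpna7. Between neighbours in that order, the mean within-embryo difference was smaller than its SD in all 6 cases. Kpna2 was above Kpna3 in 5 of 7 embryos, with a mean log2 difference of 2.20 ± 5.24 (SD, n = 7). Kpna6 was above Kpna4 in 3 embryos and below it in 4.

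Within embryos, Kpna7 was below Kpna2 in 7 of 7. Kpna7 stood at 6.22 CPM per kb in replicate 2, against 255 CPM per kb for Kpna2, which was 41.1-fold higher. Where Kpna7 had no count, the limit of 3 counts puts it at least 99.5-fold below Kpna2 per kb in replicate 1, 170-fold in replicate 3, 4967-fold in replicate 4, 1023-fold in replicate 5 and 20.7-fold in replicate 6. In replicate 7 that limit was 0.0714 CPM per kb for Kpna7, against 9.16 CPM per kb for Kpna2. The mean difference of Kpna7 minus Kpna2 was -9.59 ± 2.62 in log2 CPM per kb (SD, n = 7 embryos; two-sided exact sign-flip permutation p = 0.0156, the smallest that 7 embryos allow). With counts of 0 set at that limit, the mean was -7.58 with the same p. In 6 embryos Kpna2 was counted and Kpna7 had 0 counts, so the sign was given there. With all signs alike, the p reflects only the number of embryos. The fitted value depends on the prior count of 2 added to each gene, and it is no bound.

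Against the other members, the difference from Kpna7 is given without a test. Kpna3 was above Kpna7 or its limit in 6 embryos, Kpna6 in 5, Kpnb1 in 4 and Kpna4 and Kpna1 in 3 each. In replicate 2, the 1 embryo with all 7 members counted, Kpna7 at 6.22 CPM per kb was close to Kpna4 (5.84), Kpna6 (7.95) and Kpnb1 (9.27). There it was well below Kpna1 (21.9), Kpna3 (90.4) and Kpna2 (255). Without length scaling, Kpna7 was the lowest importin alpha in that embryo, at 15.3 CPM (95% Poisson interval 13.4 to 17.3), next to Kpna4 at 21.8 CPM (19.6 to 24.1).

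**Figure D2:**
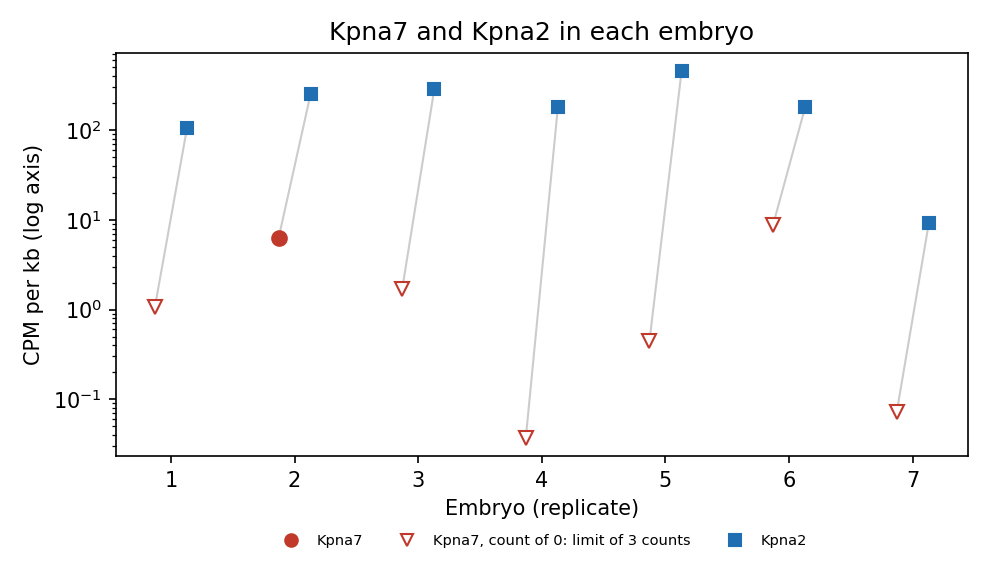
Level of Kpna7 (left, red) and Kpna2 (right, blue) in CPM per kb in each embryo on a log axis, with open triangles at the limit of 3 counts where Kpna7 had a count of 0. Kpna7 lies below Kpna2 in all 7 embryos, at 6.22 against 255 CPM per kb in replicate 2.

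The makeup of the importin alpha pool changed from embryo to embryo. Of the summed level per kb, Kpna7 made up 1.60% in replicate 2. As plain counts this was 251 of 17848 importin alpha counts, or 1.41% (95% Clopper-Pearson interval 1.24 to 1.59). In the other embryos the limit of 3 counts allows Kpna7 a share of up to 0.441% of importin alpha counts in replicate 1, 0.229% in replicate 3, 0.0141% in replicate 4, 0.116% in replicate 5, 0.794% in replicate 6 and 0.0624% in replicate 7. The share in replicate 2 was above each of these limits.

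Kpna2 and Kpna3 together made up 78.9 to 99.9% of the summed level per kb. Kpna2 took 53.5, 65.9, 50.2, 75.3, 99.9, 26.1 and 12.5% in replicates 1 to 7, and Kpna3 took 46.1, 23.3, 43.0, 5.24, 0, 52.9 and 75.1%. Kpna2 led in replicates 1 to 5 and Kpna3 in replicates 6 and 7. In replicates 1 and 3 the order rests on the length used, since Kpna3 led there with the union of all exons or with no length. Kpna6 reached 21.1% in replicate 6, Kpna4 9.24% in replicate 4 and 8.98% in replicate 7, and Kpna1 8.58% in replicate 4.

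**Figure D3:**
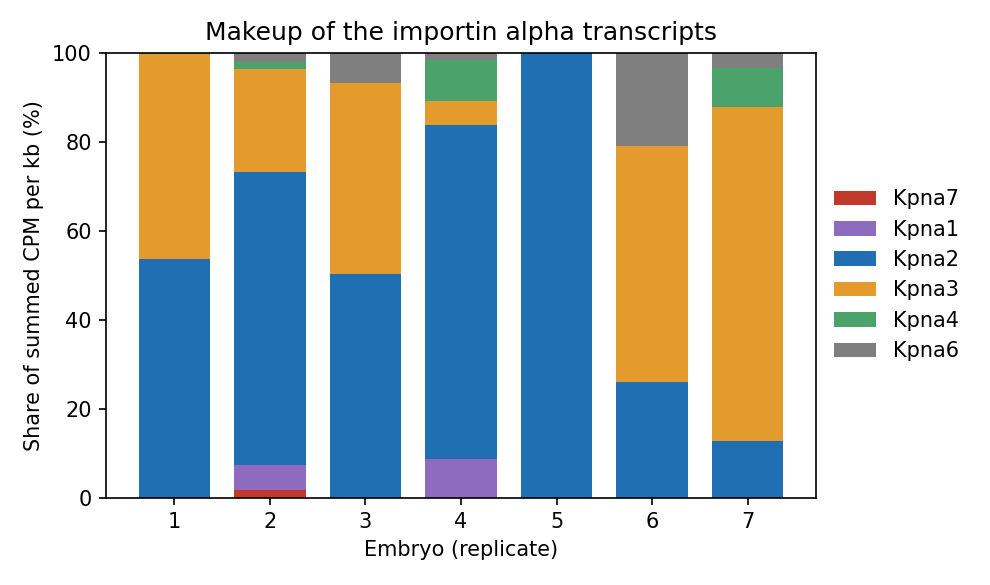
Share of each importin alpha in the summed CPM per kb of the 6 importin alphas, for each embryo (stacked bars, 100% in all). Kpna2 and Kpna3 fill from 78.9 to 99.9% of each bar, and Kpna7 appears as 1.60% in replicate 2.

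The summed importin alpha level per kb was 199, 388, 569, 243, 453, 696 and 73.1 CPM in replicates 1 to 7. Set against it, Kpnb1 per kb was 0.0239 of the sum in replicate 2, 0.150 in replicate 4, 0.317 in replicate 5 and 0.123 in replicate 7. Kpnb1 had 0 counts in replicates 1 and 6. There the limit of 3 counts, for counting error only, puts the importin alpha sum at least 447-fold and 191-fold above Kpnb1 per kb. Replicate 3 had 1 Kpnb1 count, or 1.38 CPM (95% Poisson interval 0.0349 to 7.68). Per kb, the importin alpha sum was above Kpnb1 in all 7 embryos, by 3.16-fold in replicate 5, where they were nearest. As plain counts, replicate 5 had 2578 importin alpha counts and 2340 Kpnb1 counts, a ratio of 1.10, so the size of that difference rests on the lengths used.

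Coding sequences were compared to see whether reads could be shared between members. Kpna3 and Kpna4 shared 75.0% of aligned coding bases and Kpna1 and Kpna6 73.9%, the closest of the 15 pairs, while Kpna7 was nearest to Kpna2 at 61.3%. No pair of importin alphas shared a stretch of 50 identical bases in these transcripts, so reads of that length or more that match without error belong to 1 importin alpha. Kpna2-ps, a processed pseudogene on chromosome 17, matches Kpna2 at 94.7% of aligned bases and shares 102 of its 2005 windows of 50 bases. Whether the counting split reads between them was not determined, so the Kpna2 counts are uncertain to that extent. Kpna2 itself lies on chromosome 11 from 106988629 to 106999541 (ENSMUSG00000018362.14).

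Spread between embryos was tested against genes of like abundance. In the edgeR quasi-likelihood test of dispersion, 0 of 11810 genes (0%) passed at an adjusted p under 0.05, the lowest being 0.869. Without adjustment, 67 genes were under 0.05, and limma on the authors' log2 table also called 0. Of the 7 members, all tested, 0 passed. The adjusted p was 0.869 for Kpna7, Kpna1, Kpna6 and Kpnb1, 0.872 for Kpna3, 0.894 for Kpna4 and 0.988 for Kpna2. The common dispersion of these libraries was 9.03, and at that dispersion the test did not call genes made far more variable in a check, so a count of 0 carries no information here and a p that misses the threshold does not show that the members vary like other genes. The SD of log2 CPM was largest for Kpnb1 (4.95), Kpna6 (4.37) and Kpna3 (4.17), against a median of 3.63 over all genes tested and 4.05 over the 7 members. Without replicate 5, the embryo with 0 counts, the SD of Kpna3 was 1.35. Without replicate 7, that of Kpna2 was 0.93. For Kpna7 it was 2.39, set by the single embryo with counts.

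The genes nearest to Kpna7 in pattern were sought among more abundant genes. Among 7716 genes of mean CPM 10 or more, likeness was the root mean square difference of log2 CPM, centred on each gene's own mean, over the 7 embryos. The nearest 10 genes, at 0.77 to 0.81, were Anxa1 (annexin A1), Gm19569, Zswim6, Cables1, Upk3b (a uroplakin), Wbp2nl, Pram1, Serpinb6b, 3222401L13Rik and Hp (haptoglobin). Anxa1 had 71.4 CPM in replicate 2 and 0.117 CPM in replicate 7, and Hp had 77.1 CPM in replicate 2 alone. Genes counted in a single embryo pass the minimum mean CPM only where they are high in that embryo, and Kpna7 itself does not reach it. The levels of these genes in replicate 2 are therefore set by that minimum and are given as a description.

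Other nuclear transport genes were counted in many embryos and missing from others. Cse1l, the exporter that recycles importin alpha, stood at 155 and 122 CPM in replicates 2 and 4, had 0.0584 CPM in replicate 7 and had no count in the other 4. Kpna2 was counted in all 4 of those. Ran, the GTPase that releases cargo, was highest in replicate 4 with 1700 CPM, followed by replicate 2 with 252 CPM, and had 0, 0, 3.98, 21.5 and 53.4 CPM in replicates 1, 3, 5, 6 and 7. These partners were thus highest in the same pair of libraries, which are among the 3 deepest.

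Of the 7 members, 4, 7, 4, 6, 4, 3 and 6 had a count in replicates 1 to 7. Over the 11810 genes of mean CPM 1 or more the share with a count was 41.7, 72.1, 29.0, 84.0, 27.7, 14.8 and 69.5%. Other importins and transportins had 5, 10, 6, 12, 6, 4 and 10 of 12 counted. The gene of highest mean CPM in that list was Ipo4, an importer of histones, with up to 2836 CPM, in replicate 6. Exportins had 3, 5, 2, 7, 3, 0 and 6 of 7, and Xpo1, the main exporter of proteins, had the highest mean, with up to 313 CPM, in replicate 5, where Xpot, the tRNA exporter, had 531 CPM. Ran cycle genes had 3, 10, 4, 11, 8, 4 and 8 of 11, and Ranbp3, a cofactor of Xpo1, had the highest mean, with up to 1007 CPM, in replicate 1. Ran itself reached 1700 CPM in replicate 4, as given above. Nucleoporins had 11, 25, 12, 28, 16, 6 and 25 of 28. Nup214, of the cytoplasmic face of the pore, had the highest mean, with up to 3839 CPM, in replicate 6, and Nup50 reached 4301 CPM in replicate 3. The median SD of log2 CPM in these 4 lists was 4.07, 4.52, 4.14 and 4.14.

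**Figure D4:**
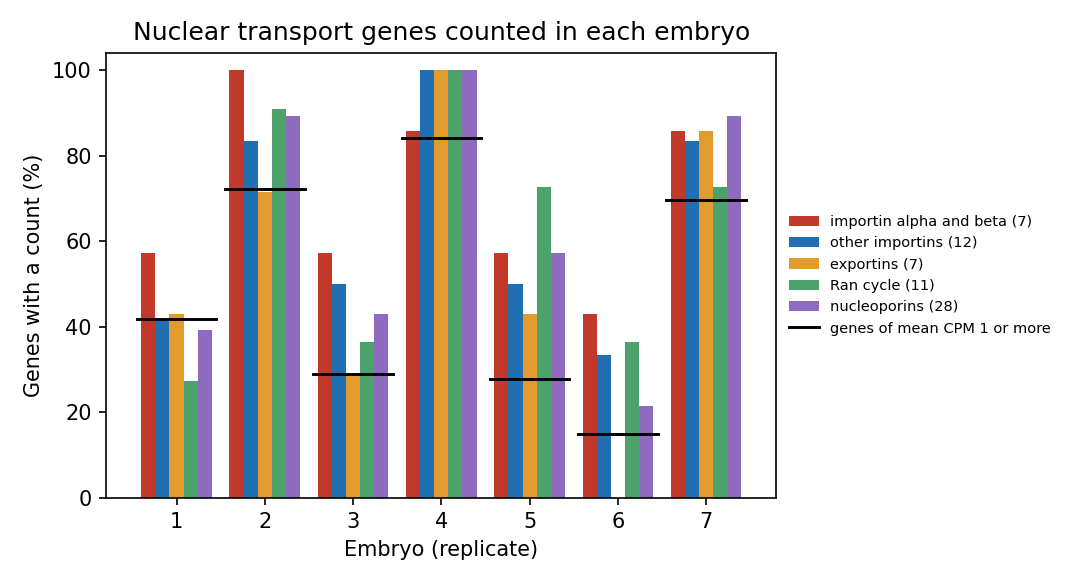
Percentage of genes with a count in each embryo for the importin alpha and beta genes and 4 other lists of nuclear transport genes (bars, list size in brackets), with the same share over all genes of mean CPM 1 or more (black lines). Replicate 4 has a count for every gene of the 4 other lists but for 6 of the 7 importin alpha and beta genes, and replicate 2 has one for all 7.

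With all libraries thinned to 139619 counts in a single random draw, the members with a count numbered 2, 7, 4, 6, 2, 3 and 6 in replicates 1 to 7. Of the 26586 gene symbols, 3963, 6919, 2819, 8569, 2325, 1749 and 6658 had a count after thinning. The member counts are to be read beside these. Kpna7 then had 1 count in replicate 2. Kpna2 kept a count in all 7 embryos, from 4 in replicate 7 to 130 in replicate 5, and Kpna3 in 6. Kpnb1 was counted in 5 embryos, with 118 counts in replicate 5 and 0 in replicates 1 and 6.

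Of the stage markers, Sall4 had the highest mean of the pluripotency genes, at 136, 475, 389, 367, 8.68, 0 and 19.6 CPM in replicates 1 to 7, and Dab2 that of the trophectoderm genes, at 163, 59.3, 0, 437, 0, 3065 and 149 CPM. Omt2b had the highest mean of the oocyte transcripts, at 1781, 4971, 3103, 1.57, 577, 2607 and 6719 CPM. Markers of other cells were read beside these values. Oviduct and uterine epithelium markers summed to 1153, 1728, 0, 63.7, 1.81, 4340 and 249 CPM in replicates 1 to 7. Replicate 6, the embryo of highest Kpna3 and Kpna6, had the highest sum, with 3 of 12 counted, and replicate 3, the next highest in both genes, had 0 of 12. Of all genes of mean CPM 1 or more, 14.8% were counted in replicate 6 and 29.0% in replicate 3. Lcn2, the oviduct and uterine marker of highest mean level, was at 289, 835, 0, 0, 1.81, 1490 and 22.6 CPM. Cumulus and granulosa markers had 7 of 12 at 0 in all embryos and summed to 0 to 459 CPM, with Amhr2 the highest by mean. Blood and immune markers summed to 0 to 129 CPM, with Csf1r at 129 CPM in replicate 6 and 0 elsewhere. The part of these markers in the importin levels was not tested.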

How the data were processed

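Per the submitters' processing notes, the authors used HISAT2 2.0.5, featureCounts 1.5.0-p2, limma and the build GRCm38. No source used here gives their settings, annotation or strand use. Read counts per gene symbol were deposited as whole numbers without normalization. The deposited log2 table was recomputed from the counts as log2 CPM with an offset of 0.5 and quantile normalization, to within 4.97e-14.

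CPM are counts over the library total. For log2 CPM, edgeR 4.0.16 (R 4.3.3) applied TMM scaling and a prior count of 2. Genes of mean CPM 1 or more were tested, 11810 in all, with Benjamini-Hochberg adjustment over all of them. The test of spread is a one-sided F test of each gene's quasi-likelihood dispersion against the abundance trend. On simulated data it recovered most of the genes made more variable at a low dispersion, but none at the dispersion of these libraries, so its lack of calls here is uninformative. The sign-flip test used SciPy 1.17.1. Lengths and overlaps come from GENCODE M21 (GRCm38) and coding alignments from Biopython 1.88. Alternatives were other lengths, prior counts, size factors (DESeq2 1.42.0), filters, plain counts for the ratio of importin alphas to Kpnb1 (chosen after seeing the data), limma 3.58.1 on the authors' table, thinning and left-out embryos.

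Members and lists were chosen with earlier results of these data known. The named genes were the members, the gene of highest mean CPM of each of 11 lists, Cse1l, Ran and the 10 genes most like Kpna7. Npm2, Arpc1a, Pgr, Xpot and Nup50 lie outside that rule and were chosen with values seen. The planned test of slopes on the Kpna7 level was not run, since Kpna7 had counts in 1 embryo only.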

Additional observations from a re-analysis of the deposited data

Results flagged for a closer look

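Of 21 sets of 7 values examined, 7 had 1 embryo far from the others, by Dixon's criterion at 95% on log2 CPM. The 1 in 20 rate of that criterion holds for values without ties, and counts of 0 tie at 1 value. A gene counted in exactly 1 embryo, as were 15.1% of genes of mean CPM 1 or more, has the widest gap possible. Some sets were picked by their mean CPM, and the share flagged over all genes was not determined. The 7 of 21 therefore cannot be read as an excess over chance. Kpna7 was highest in replicate 2 (log2 CPM 4.27), with the other 6 embryos at 0 counts. Kpna2 was lowest in replicate 7 (4.30). Kpna3 was lowest in replicate 5 (-2.07), with 0 counts. Nup214 was lowest in replicate 5 (-2.07) and Xpo1 in replicate 6 (-2.07), each with 0 counts. Omt2b, an oocyte transcript, was lowest in replicate 4 (1.25), and Csf1r was highest in replicate 6 (6.26).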

How the results depend on the processing

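The difference of Kpna7 minus Kpna2 stayed negative in every embryo under all 15 settings. It kept its side of the threshold in 13 of 14 alternatives. With all signs alike, each p was set by the number of embryos, so this count adds no support. Without replicates 3 and 6 the mean was -9.16 (exact permutation p = 0.0625, the smallest that 5 embryos allow). Leaving out single embryos gave -10.30 to -9.12, each with an exact permutation p = 0.0312, the smallest for 6. After thinning it was -4.74, and with a prior count of 0.5 it was -11.30, since the prior count sets the value of a gene at 0. The test of spread also called 0 genes in each of 11 alternatives, which is no sign of stability in a test that could make no call at this dispersion, with 9 to 123 at an unadjusted p under 0.05. Kpna7 was not tested at a mean CPM of 10 or more or without replicate 2. Of 84 member means under alternatives, 1 moved by more than its SD, that of Kpna7 after thinning, to 3.91. The planned test of slopes on the Kpna7 level was not run: with counts in 1 embryo it would set that embryo against the rest by the outcome itself. For the same reason no correlation with Kpna7 is given. Setting counts of 0 to the limit of 3 counts, and member means without replicates 3 and 6, were chosen after seeing the data.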
